A study of Homo sapiens with 6 samples.

Results

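The genes described here encode the cytochrome P450 (CYP), UDP-glucuronosyltransferase (UGT), glutathione S-transferase (GST) and sulfotransferase (SULT) enzymes that were detected in Hep G2, a cell line established from a human liver tumor. They were selected on the values of the deposited table of RPKM, read counts scaled to the length of the gene and to the mapped reads of the library. A row was a member when its symbol began with CYP and a digit, with UGT1A or UGT2B, with GST and one of the letters A, K, M, O, P, T or Z, or with SULT and a digit, and when its RPKM in total RNA of non-transfected cells was above 0. The symbols matched 108 of the 21863 genes in the table, and 69 of these were members. The other 39 were at 0 in that library, and 25 of them were at 0 in all 6 libraries. Since the members were chosen by this value, detection itself is not a result, and 14 genes that were above 0 only in other libraries were left out by the rule. In the same library, 15224 of all genes were above 0.

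RNA was sequenced from Hep G2 cells under 3 conditions: not transfected (NT, labelled 0 h), transfected with a synthetic double-stranded mimic of *miR-195*, or transfected with a mimic of *miR-497*, the mimics at 5 nM and for 24 h. Each condition gave 1 library of total RNA and 1 library of the RNA recovered by immunoprecipitation of Argonaute 2 (Ago2-IP), the protein that carries a miRNA to its target mRNA. The mimics were delivered by lipofection with RNAiMAX, and no library of cells that received a control mimic is among the 6, so the mimic, the transfection and the culture time cannot be told apart in a comparison with NT. The comparisons ask which transcripts were bound by Ago2 or changed in level when either miRNA was restored.

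The 4 enzyme families share the work of making lipid-soluble compounds soluble. CYP enzymes oxidize drugs, steroids, sterols and fatty acids with electrons from POR in the endoplasmic reticulum or from ferredoxin in mitochondria. UGT, GST and SULT enzymes then attach glucuronic acid, glutathione or sulfate, and the products leave the cell through efflux pumps. Adult hepatocytes are known for high levels of CYP3A4, CYP2E1 and CYP1A2, while other CYP enzymes serve cholesterol, bile acid and vitamin D metabolism. A miRNA pairs with mRNA mainly through its seed, bases 2 to 8 from its 5′ end.

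The mature sequences of both miRNAs, taken from RefSeq on GRCh38.p14, are shown because they carry the same seed, given in capitals, so the same 7-base site was searched for both. The sample labels do not name the arm of the hairpin, and the 5p arm is printed.
hsa-miR-195-5p: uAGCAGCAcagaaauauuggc
hsa-miR-497-5p: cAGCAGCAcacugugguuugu

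The complement of the seed, TGCTGCT, was searched on the transcript strand of the 3′ untranslated regions annotated in GENCODE release 44 on GRCh37, which is the hg19 build of the deposited values. It was found in 7 of the 65 members with such a region (10.8%), against 25.3% of the 18210 genes of the table that have one. CYP2S1, GSTM2 and GSTO2 held the site and were also high enough to be compared. The sites of CYP2S1 and GSTM2 are printed so that they can be read beside the ratios of these genes, and the capitals mark the site within 29 bases of the mRNA strand.
CYP2S1, chr19:41712550-41712578, plus strand: cacttgactcaTGCTGCTaagatgcacaa
GSTM2, chr1:110225831-110225859, plus strand: tccctcatcccTGCTGCTcctgatccccg

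The site in CYP2S1 lay at chr19:41712561-41712567 in 1 of its 2 annotated transcripts with a 3′ untranslated region and was followed by an A. GSTO2 held 2 sites. The site in GSTM2, at chr1:110225842-110225848, was present in 2 of 7 transcripts. It occurs again with the same flanking bases at chr1:110244287-110244293 in another annotated transcript of GSTM2. That second position lies within the annotated bounds of GSTM1, chr1:110230436-110251661. The other members with the site were below the level needed for a comparison. A match of these letters is a description of the sequence and not evidence of pairing.

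Each group is 1 library, so there is no spread between replicates and no test, and every difference below compares single libraries. Whole reads per gene could be recovered from the steps between low RPKM values for 14283 of the 15486 genes tried, and they summed to 20537766 to 26363868 reads over genes in total RNA and to 2125817 to 4365079 in Ago2-IP. They were recovered for 63 of the 69 members, and the 95% intervals given below are computed from them and cover counting error only. Of these 63 members, 23 rested on fewer than 10 reads in NT total RNA and 24 on at least 100. The hepatocyte markers were high, with AFP at 4884 RPKM, APOB at 1199 and ALB at 61.4 in NT total RNA, although TTR stood at 1.53. Among 10 markers of other liver cells, 5 were at 0 in NT total RNA, and PTPRC, MARCO and KRT7 were at 0 in all 6 libraries. In contrast, KRT19, a keratin of bile duct cells, and ACTA2, a smooth muscle actin, were at 46.7 and 22.1 RPKM. CD68, a macrophage marker, was also above 0 and high enough to be compared between the 2 fractions of NT.

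In non-transfected Hep G2, the glutathione transferases were the most abundant of the families and the adult drug-oxidizing CYP enzymes were near the limit of detection. The summed RPKM of the members was 475.7, of which the 15 GST members made up 61.2%, the 15 members of CYP families numbered above 4, most of which act on sterols, steroids, bile acids or vitamins, 20.6%, and the 7 SULT members 12.1%. The 18 members of the CYP1 to CYP3 families, which hold most drug-metabolizing CYP enzymes, made up 3.57%, the 8 CYP4 members 1.76%, the 5 UGT2B members 0.835% and the single UGT1A member 0.0074%. The 5 highest members held 60.3% of the sum. Only 29 of the 69 members (42.0%) reached 1 RPKM, against 71.5% of all genes above 0, and their median was 0.416 RPKM against 5.51. Because 40 members are low, few of them could be compared between libraries.

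**Figure D1:**
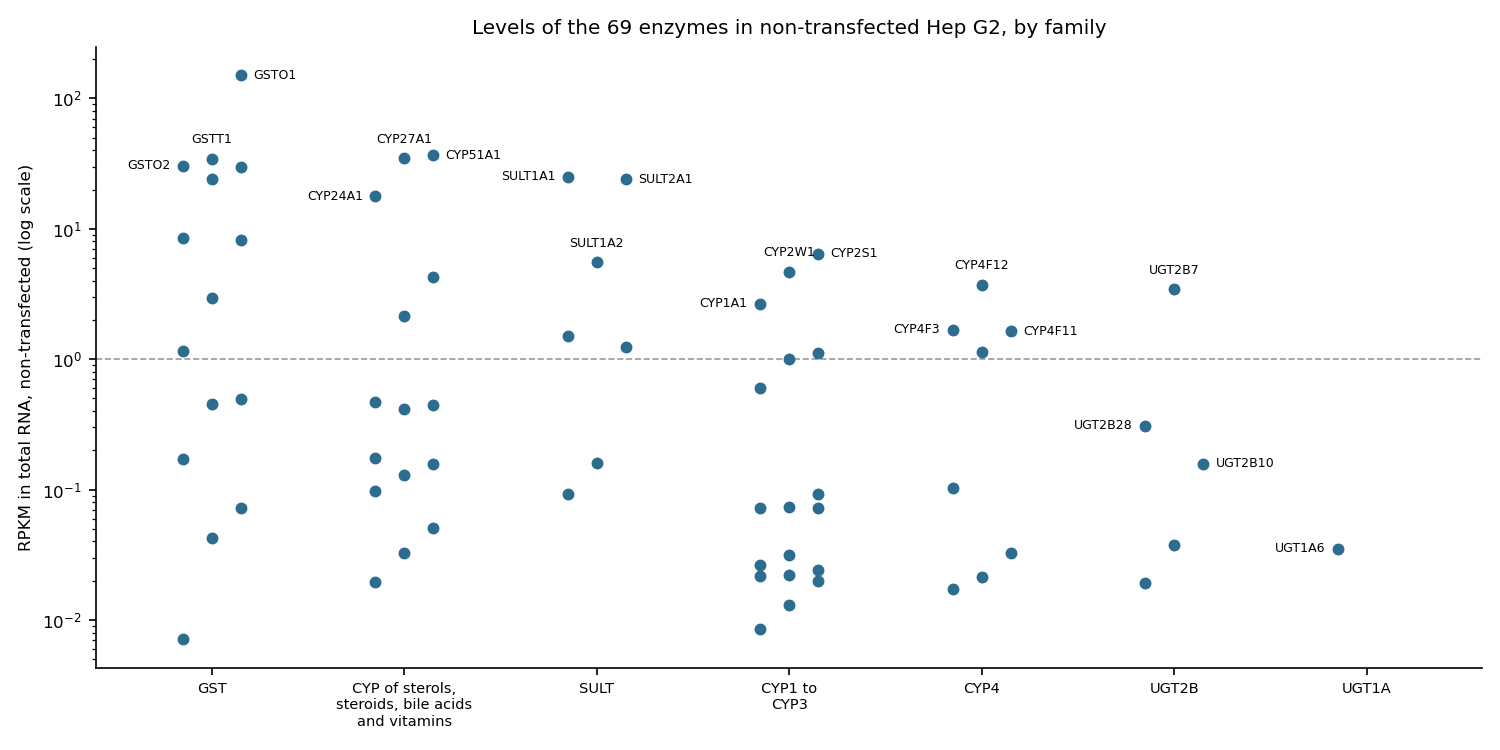
RPKM in NT total RNA on a log axis for the 69 members, arranged by family, with 1 point per gene and the 3 highest of each family named. GSTO1 stands at 150.5 RPKM above all others, while 12 of the 18 members of the CYP1 to CYP3 families lie below 0.1 RPKM, and the dashed line marks 1 RPKM.

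GSTO1, an omega-class transferase that reduces dehydroascorbate and methylated arsenic, led the members at 150.5 RPKM in NT total RNA (4878 reads, 95% interval 146.3 to 154.8). It ranked 305th among all genes. The next members lay close together. CYP51A1, the lanosterol demethylase of cholesterol synthesis, was at 36.7 RPKM (35.4 to 38.0), CYP27A1, the mitochondrial sterol hydroxylase of bile acid synthesis, at 34.9, and GSTT1, a theta-class transferase, at 34.3. GSTO2, the neighbour of GSTO1, was at 30.3 RPKM, and GSTK1, a transferase of mitochondria and peroxisomes, at 29.7. The intervals of neighbours in this order overlapped, though only barely for GSTT1 (32.08 to 36.6) and GSTO2 (28.6 to 32.09). Overlap alone does not show whether counting resolves the order of a pair. SULT1A1, which sulfates phenols, was at 24.97 RPKM, GSTA4, which conjugates aldehydes from lipid peroxidation, at 24.2, and SULT2A1, which sulfates dehydroepiandrosterone and bile acids, at 23.9. CYP24A1, the hydroxylase that inactivates vitamin D, followed at 17.8 RPKM. The 15 highest were completed by GSTM4 at 8.46, GSTZ1, an enzyme of tyrosine breakdown, at 8.24, CYP2S1 at 6.43, SULT1A2 at 5.55 and CYP2W1, a CYP enzyme known from fetal tissue and colon tumors, at 4.68 RPKM.

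The CYP enzymes that define adult hepatocytes were nearly absent. CYP3A4 was at 0.073 RPKM in NT total RNA with 5 reads, CYP2E1 at 0.0728 with 3 reads and CYP1A2 at 0.0129 with 1 read. CYP2D6 stood at 0.0244 and CYP2B6 at 0.0265 RPKM. The CYP3A genes on chromosome 7 that did reach 1 RPKM were CYP3A5 at 1.11 and CYP3A7, the form typical of fetal liver, at 1.01. CYP1A1, the form induced through the aryl hydrocarbon receptor, was at 2.67 RPKM, whereas its neighbour CYP1A2 rested on a single read. CYP7A1, which starts bile acid synthesis, was at 0 in all 6 libraries, while CYP27A1 of the alternative route was among the 3 highest members.

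Single genes carried most of the signal in most gene clusters. In the GSTA cluster on chromosome 6, GSTA4 held 96.2% of the summed RPKM, and GSTA2 and GSTA1 were at 0.494 and 0.450 RPKM. In the UGT2B cluster on chromosome 4, UGT2B7, which conjugates opioids and steroids, was at 3.45 RPKM and held 86.8% of the sum, with UGT2B28 at 0.309. CYP2S1 held 99.2% of the sum in its cluster with CYP2A, CYP2B and CYP2F genes on chromosome 19. In the GSTM cluster on chromosome 1 the shares were less unequal, with GSTM4 at 66.4% of the sum and GSTM3 at 2.94 RPKM. They were more even still in the SULT1C, CYP4F and CYP3A clusters, where the highest gene held 54.7%, 52.0% and 48.5%. No gene reached 1 RPKM in the UGT1A, CYP2C and CYP2D clusters or in that of the CYP4A, CYP4B, CYP4X and CYP4Z genes. GSTP1, the pi-class transferase that is often silenced in liver tumors, was at 0.0422 RPKM with 1 read. Members with near-identical copies, among them the GSTA, GSTM, SULT1A, CYP2D, CYP3A, CYP4F and UGT2B genes, are uncertain to the extent that reads could be assigned to either copy.

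The UGT1A genes were almost silent, and the part of the transcript counted for them is not resolved. The 9 UGT1A rows each have an exon of their own and share 4 later exons at chr2:234675680-234681946. UGT1A6 was the only member, at 0.0353 RPKM in NT total RNA (1 read), 0.119 with *miR-195* (4 reads) and 0.0845 with *miR-497* (3 reads). UGT1A1, the bilirubin-conjugating enzyme, was at 0 in NT and at 0.116 and 0.0735 RPKM with the mimics, from 3 and 2 reads. The worth of 1 read in UGT1A1 implies a counted length of 877 bases, against 864 bases for its own exon and 3389 for the whole annotated transcript. For UGT1A6 the implied length was 1144 bases, against 976 and 2455. These lengths rest on the smallest whole numbers of reads that fit, and UGT1A1 was above 0 in only 2 libraries. Small multiples of these reads would imply longer lengths. The values thus do not tell whether the own exon or the whole transcript was counted.

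Just inside the rule stood GSTA7P at 0.0071 RPKM, CYP2U1 at 0.0085 and CYP1A2 at 0.0129. Just outside it stood the 39 rows at 0 in NT total RNA, of which UGT1A1 and GSTM2P1 reached 0.116 and 0.0300 RPKM in total RNA with *miR-195*. A value of 0 allows a level up to that of 3 reads, which depends on the gene's length and in NT total RNA would be 0.0926 RPKM for a gene of the length of GSTO1 and 0.0369 RPKM for one of the length of CYP51A1.

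Ratios were computed for members with a mean of at least 1 RPKM over the libraries compared and values above 0 in each, and a ratio of 1.5-fold was taken as the size that counts. In total RNA with *miR-195*, 28 of the 69 members could be compared. Of these, 5 were higher than in NT by 1.5-fold or more, against 6.41% of all 10980 genes compared, and 0 were lower, against 6.32%. The 5 were CYP2W1, CYP24A1, SULT1A2, CYP19A1 and GSTT1. For the 28 the median log2 ratio was 0.11, against 0.00 for all genes, and 20 of the 28 were above 0. The members that passed did so partly through the library in which they were high, so these counts describe them and do not stand for all 69.

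CYP2W1 showed the highest ratio in total RNA with either mimic. Its RPKM was 4.68 in NT, 11.8 for the *miR-195* library and 13.1 for *miR-497* in total RNA, and 1.24, 5.67 and 1.22 in the same order in Ago2-IP. Both mimic libraries of total RNA were thus above NT, while in Ago2-IP only the *miR-195* library was. The total RNA ratios were 2.52 (2.19 to 2.91) for *miR-195* and 2.79 (2.43 to 3.21) for *miR-497*. The gene lies at chr7:1022817-1029276 on the plus strand and has no annotated exon overlapping another gene. Among the other members higher by 1.5-fold or more in total RNA, CYP24A1 has none either. Exons of GSTT1 and CYP19A1 overlap another annotated gene on the opposite strand, and those of SULT1A1, SULT1A2 and GSTM2 on the same strand.

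CYP24A1 was high with *miR-195* only. In total RNA it stood at 17.8 RPKM in NT, 37.5 for the *miR-195* library and 18.9 for *miR-497*, and in Ago2-IP at 5.59, 14.0 and 6.75. The *miR-195* library was above the other two in both fractions. The ratio in total RNA was 2.11 (1.98 to 2.24) for *miR-195* and 1.06 (0.992 to 1.14) for *miR-497*, and the ratio between the mimics was 1.99 (1.88 to 2.10). CYP24A1 was the only one of 27 members compared that differed between the mimics by 1.5-fold or more in this direction, against 1.57% of all genes, and 0 were lower, against 6.19%.

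CYP19A1, the aromatase that makes estrogens, had the same order of libraries in total RNA, at a lower level, but not in Ago2-IP. Its total RNA values were 2.15 RPKM in NT, 3.40 for the *miR-195* library and 2.45 for *miR-497*, and its Ago2-IP values 1.74, 1.87 and 1.46. The ratio with *miR-195* was 1.58 (1.35 to 1.86). SULT1C4, a fetal sulfotransferase, had ratios of 1.48 (1.08 to 2.06) and 1.02 (0.721 to 1.44).

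GSTT1 and the SULT1A pair were higher with both mimics. GSTT1 was at 34.3 RPKM in NT, 53.6 for the *miR-195* library and 57.9 for *miR-497* in total RNA, and at 3.87, 11.6 and 3.72 in Ago2-IP. SULT1A1 was at 24.97, 34.2 and 38.4 RPKM in total RNA and at 2.90, 5.44 and 1.96 in Ago2-IP. SULT1A2, which lies beside SULT1A1 on chromosome 16 and is nearly identical to it, was at 5.55, 8.95 and 9.45 RPKM in total RNA and at 1.06, 2.89 and 1.14 in Ago2-IP. For these 3 genes the mimic libraries of total RNA lay above NT and close to each other. The ratios with *miR-195* and *miR-497* were 1.56 (1.44 to 1.696) and 1.69 (1.56 to 1.83) for GSTT1, 1.37 (1.28 to 1.47) and 1.54 (1.44 to 1.65) for SULT1A1, and 1.61 (1.35 to 1.93) and 1.701 (1.43 to 2.03) for SULT1A2.

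**Figure D2:**
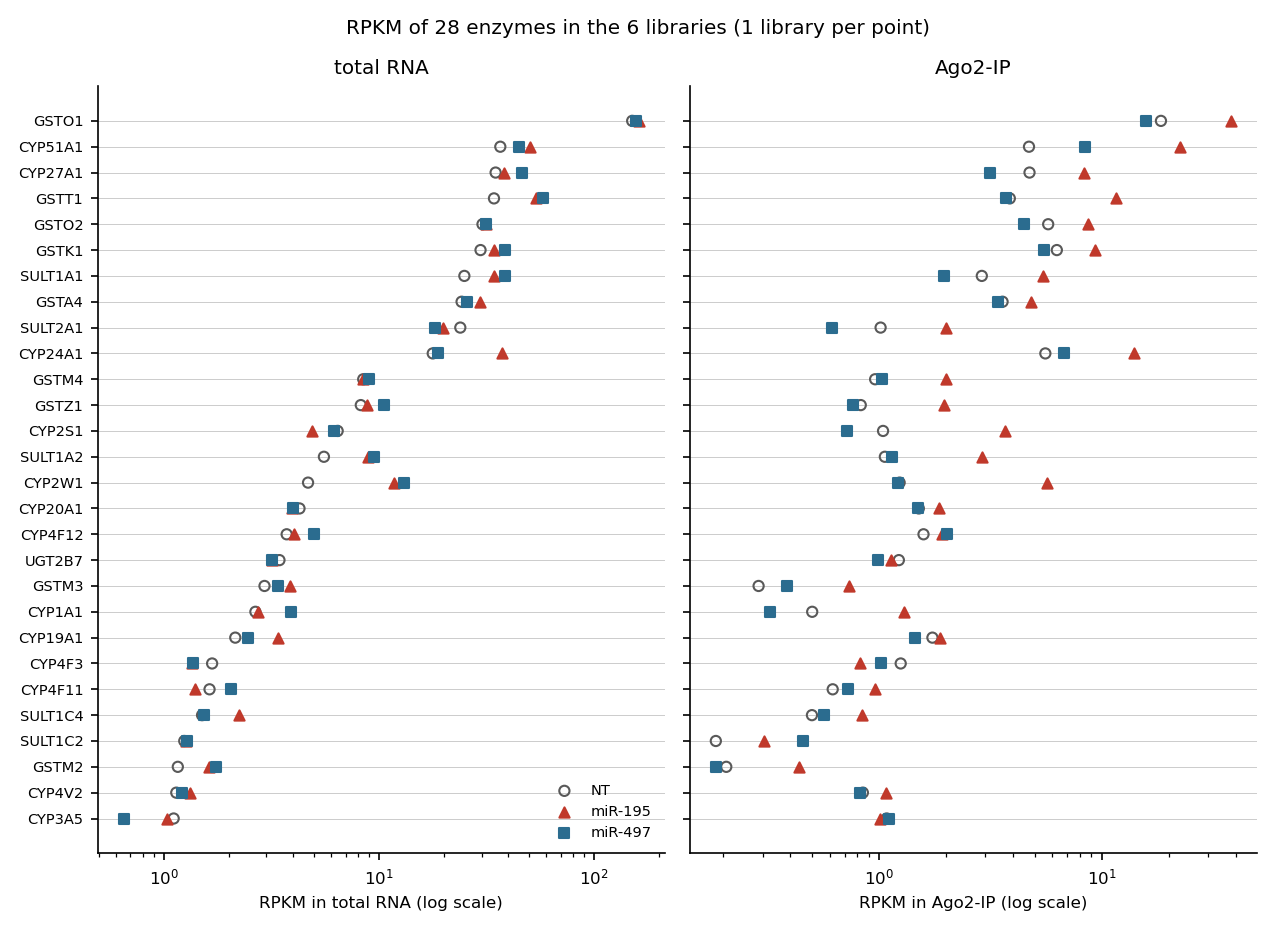
RPKM on log axes in total RNA (left) and Ago2-IP (right) for the 28 members that could be compared with *miR-195*, with 1 marker per library: open circles for NT, triangles for *miR-195* and squares for *miR-497*. In Ago2-IP the *miR-195* triangle lies to the right of both other markers for most members, and in total RNA the markers of CYP2W1 and CYP24A1 lie farthest apart.

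With *miR-497*, 27 members could be compared in total RNA, and 5 were higher than in NT by 1.5-fold or more, against 12.3% of all 11029 genes, while 0 were lower, against 3.01%. The 5 were CYP2W1, SULT1A2, GSTT1, SULT1A1 and GSTM2, and CYP2W1, SULT1A2 and GSTT1 were above 1.5-fold with both mimics. Both comparisons share the NT library, so they are not independent. In log2 ratio, the median was 0.19 for the members and 0.05 for all genes. After scaling each library by its median RPKM, 3 members were higher with *miR-497*, against 7.78% of all genes. GSTM2, a mu-class transferase, was at 1.16 RPKM in NT and 1.74 with *miR-497*, a ratio of 1.501 (1.08 to 2.10) from 58 and 109 reads.

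No member fell to the 1.5-fold limit in total RNA, but SULT2A1 and CYP2S1 were lower by less than that. SULT2A1 was at 23.9 RPKM in NT, 19.9 for the *miR-195* library and 18.3 for *miR-497* in total RNA, with ratios of 0.832 (0.766 to 0.903) and 0.764 (0.703 to 0.830). CYP2S1 was at 6.43, 4.89 and 6.21 RPKM, with ratios of 0.760 (0.659 to 0.876) and 0.965 (0.846 to 1.10), so its interval lay below 1 with *miR-195* only. CYP4F3, a leukotriene hydroxylase, had ratios of 0.804 (0.624 to 1.04) and 0.811 (0.632 to 1.04), and UGT2B7 had ratios of 0.927 (0.744 to 1.16) and 0.923 (0.743 to 1.15), and these intervals included 1.

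Between the mimics in total RNA, CYP4F11, a fatty acid hydroxylase, had the lowest ratio of *miR-195* to *miR-497* at 0.681 (0.538 to 0.860), from 1.40 and 2.05 RPKM. CYP1A1 was at 2.73 and 3.89 RPKM, a ratio of 0.703 (0.587 to 0.839), and CYP2S1 had a ratio of 0.787 (0.687 to 0.902). Against NT, CYP1A1 had a ratio of 1.02 (0.833 to 1.26) for *miR-195* and 1.46 (1.21 to 1.77) for *miR-497*. The most abundant member and its neighbour differed little between the libraries. GSTO1 was at 150.5, 162.0 and 156.4 RPKM and GSTO2 at 30.3, 31.6 and 31.5.

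**Figure D3:**
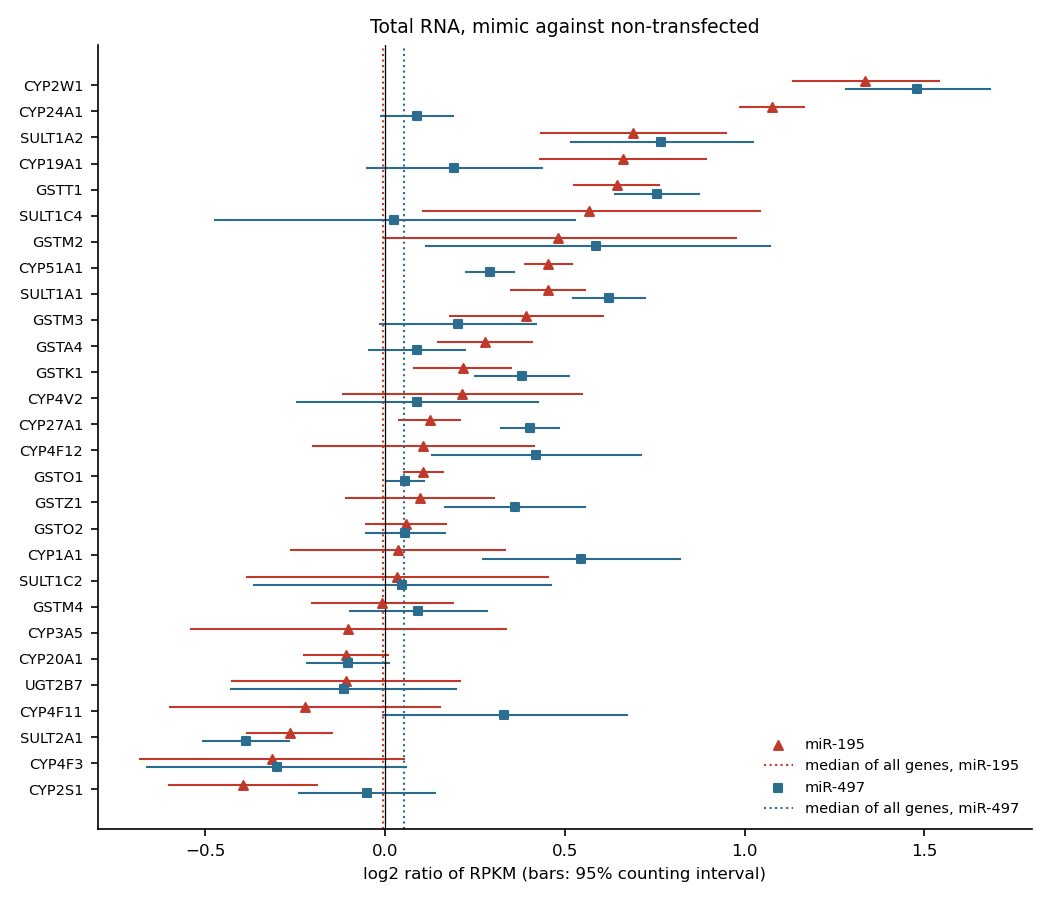
Log2 ratio of RPKM in total RNA, mimic against NT, for the members that could be compared, with bars for the 95% counting interval and dotted lines for the median of all genes. CYP2W1 lies at 1.33 for the *miR-195* library and 1.48 for *miR-497*, while CYP24A1 lies at 1.08 and 0.09.

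Of the markers of other liver cells, 3 could be compared in total RNA. KRT19 was higher by 1.5-fold or more with both mimics and ACTA2 with *miR-497*, while CD68 was past 1.5-fold with neither. The summed RPKM of the 10 markers of other liver cells was 79.7 in NT total RNA, 149.2 for the *miR-195* library and 158.3 for *miR-497*, and KRT19 made up most of the difference at 46.7, 103.4 and 107.7 RPKM. PTPRC, MARCO and KRT7 stayed at 0, VWF was at 0, 0.0039 and 0.0037, and COL1A1 was at 0.0892, 0.380 and 0.196. The hepatocyte markers summed to 7916, 7815 and 7680 RPKM, while TTR was higher by 1.5-fold or more with both mimics and APOA1 with *miR-497*. The part of these shifts in the members' ratios was not tested. Hep G2 is a cell line, and in bulk RNA the number of cells with a transcript cannot be told apart from its level per cell.

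In Ago2-IP, *miR-195* went with higher values across most genes, and the members followed. Of 21 members compared, 13 were higher than in NT by 1.5-fold or more, against 43.5% of all 10246 genes, and 1 was lower, against 3.4%. Their median log2 ratio was 0.91, against 0.49 for all genes. After each library was scaled by its median RPKM, 7 members were higher and 3 lower, against 17.1% and 16.4% of all genes. The summed RPKM of the markers of other liver cells in Ago2-IP was 6.19 in NT, 26.2 in the *miR-195* library and 7.15 in the *miR-497* library, and their part in the result was not tested. RPKM is scaled to all mapped reads, and the part of these recovered over genes differed between the Ago2-IP libraries. It was larger with *miR-195* than in NT and smaller with *miR-497*. A higher or lower RPKM in Ago2-IP is thus not by itself a measure of binding to Ago2. How far this difference entered the ratios was not tested. Since the median of all genes moved, ratios in Ago2-IP are also given as the log2 ratio minus the median of all genes.

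CYP51A1 had the highest Ago2-IP ratio with either mimic. Its Ago2-IP values were 4.72 RPKM in NT, 22.5 for the *miR-195* library and 8.42 for *miR-497*, and its total RNA values 36.7, 50.3 and 44.9. The *miR-195* library was the highest in both fractions, and the order of the libraries was the same in both. The Ago2-IP ratio was 4.78 (4.17 to 5.50) with *miR-195*, or 1.77 on the log2 scale above the median of all genes, and 1.79 (1.51 to 2.12) with *miR-497*, or 1.08 above it. Its 3′ untranslated region, of up to 1512 bases, does not hold the 7-base site. Exons of CYP51A1 overlap exons of AKAP9 on the opposite strand, and without a stated strand in the counting, reads of the overlap cannot be told apart. AKAP9 itself was at 10.4, 8.29 and 10.9 RPKM in Ago2-IP, a ratio of 0.795 with *miR-195*.

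CYP2W1 and CYP2S1 followed with *miR-195*. CYP2W1 had an Ago2-IP ratio of 4.58 (3.32 to 6.44), from 48 and 178 reads, and of 0.987 (0.604 to 1.59) with *miR-497*. CYP2S1 was at 1.04 RPKM in NT, 3.70 for the *miR-195* library and 0.716 for *miR-497* in Ago2-IP. Its ratio with *miR-195* was 3.55 (2.52 to 5.08), or 1.34 above the median of all genes on the log2 scale. GSTT1 had a ratio of 3.01 (2.26 to 4.04) and SULT1A2 of 2.72 (1.67 to 4.55).

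Among the families, all 7 GST members and all 3 SULT members compared had Ago2-IP ratios above 1 with *miR-195*, as did 80.5% of all genes, and GSTA4 at 0.43 on the log2 scale lay below the median of all genes. The lowest ratios were in CYP4F3, UGT2B7 and CYP3A5. CYP4F3 was at 1.25 RPKM in NT, 0.820 for the *miR-195* library and 1.02 for *miR-497*, a ratio of 0.655 (0.422 to 1.002) with *miR-195* from 66 and 35 reads. UGT2B7 had a ratio of 0.919 (0.548 to 1.53) and CYP3A5 of 0.932 (0.613 to 1.41), and their intervals included 1.

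With *miR-497*, 17 members could be compared in Ago2-IP. CYP51A1 was the single member higher by 1.5-fold or more, against 2.37% of all 9475 genes, and CYP27A1 was the single lower member, against 16.1%. CYP27A1 was at 4.74 RPKM in NT, 8.36 for the *miR-195* library and 3.15 for *miR-497*, a ratio of 0.665 (0.503 to 0.872) with *miR-497*, from 183 and 77 reads. The median log2 ratio of the members was -0.07 against -0.24 for all genes. With scaling by the median RPKM, 2 members were higher and 0 lower, against 5.79% and 5.72%, so the call for CYP27A1 was lost. SULT1A1 at 0.677 (0.460 to 0.981) and GSTO2 at 0.780 (0.584 to 1.03) came next, and CYP4F12 at 1.27 (0.801 to 2.00) and CYP24A1 at 1.21 (1.02 to 1.44) stood highest after CYP51A1.

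**Figure D4:**
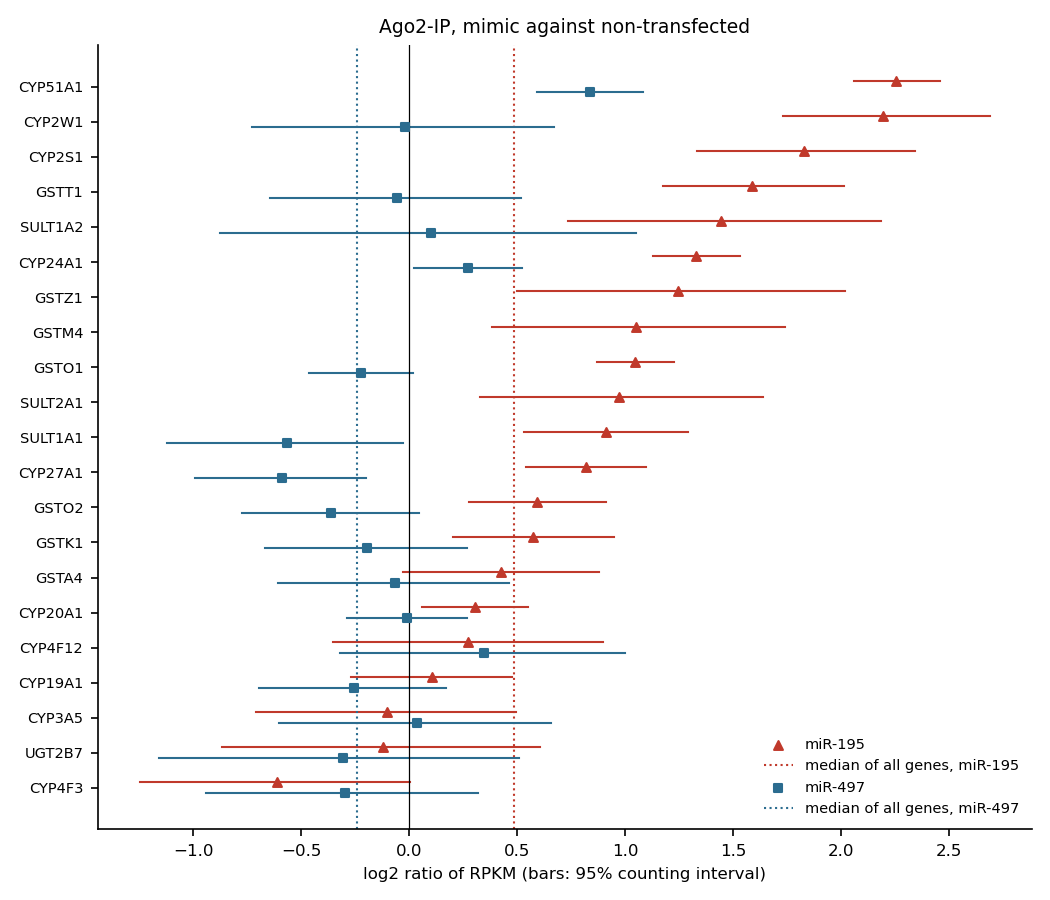
Log2 ratio of RPKM in Ago2-IP, mimic against NT, with bars for the 95% counting interval and dotted lines for the median of all genes, 0.49 with *miR-195* and -0.24 with *miR-497*. CYP51A1 lies above the dotted line with both mimics, at 2.26 and 0.84, and CYP2W1 and GSTT1 with *miR-195* are far from their *miR-497* values.

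Between the mimics in Ago2-IP, 14 of 20 members were higher with *miR-195* by 1.5-fold or more, against 58.1% of all genes, and 0 were lower, against 1.9%. CYP2S1 had the highest ratio at 5.16 (3.21 to 8.73), followed by CYP2W1 at 4.64 (3.14 to 7.08) and SULT2A1 at 3.25 (1.75 to 6.49). The median of all genes was 0.73 on the log2 scale and that of the members 1.16. CYP3A5 at 0.909 (0.572 to 1.45), CYP4F12 at 0.952 (0.602 to 1.51) and UGT2B7 at 1.13 (0.620 to 2.12) had the lowest ratios, and their intervals included 1.

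Without transfection, Ago2-IP values of the members were below their total RNA values, as were those of most genes. RPKM is scaled to mapped reads, and 1 read was worth 1.47 times as much RPKM in Ago2-IP as in total RNA. The reads recovered over genes were 3921231 in Ago2-IP and 20537766 in total RNA. They thus made up a smaller part of the mapped reads in Ago2-IP. A lower RPKM there is therefore not by itself a measure of weak binding to Ago2. Of 25 members compared, 22 were lower in Ago2-IP by 1.5-fold or more, against 87.2% of all genes, and 0 were higher, against 3.75%. The median log2 ratio was -2.40 for the members and -1.86 for all genes, and -0.76 and -0.22 after scaling by the median RPKM. SULT2A1 had the lowest ratio, at 1.02 RPKM in Ago2-IP against 23.9 in total RNA, or 0.0425 (0.0292 to 0.0598). CYP3A5 at 0.974 (0.684 to 1.38), CYP19A1 at 0.808 (0.649 to 1.004) and CYP4F3 at 0.746 (0.546 to 1.01) were the 3 members within 1.5-fold. The 8 GST members compared lay between -3.35 for GSTM3 and -2.24 for GSTK1 on the log2 scale.

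A fold enrichment score was formed for each mimic as the Ago2-IP ratio to NT divided by the total RNA ratio to NT, which sets the change in Ago2-IP against the change in level. With *miR-195*, 13 of 26 members scored 1.5 or more, against 43.4% of all 10819 genes, and 0 scored as far below 1, against 1.97%. The median log2 score of the members was 0.61 and that of all genes 0.50, and after scaling by the median RPKM these were 0.093 and -0.03. CYP2S1 had the highest score at 4.67 (3.24 to 6.71), then CYP51A1 at 3.49 (3.02 to 4.03) and CYP1A1 at 2.52 (1.46 to 4.36). CYP19A1 at 0.681 (0.507 to 0.915), CYP4F3 at 0.815 (0.505 to 1.31) and UGT2B7 at 0.992 (0.586 to 1.68) had the lowest.

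With *miR-497*, 0 of 25 members scored 1.5 or more, against 3.22% of all 10734 genes, and 6 scored as far below 1, against 30.5%. CYP51A1 had the highest score at 1.46 (1.23 to 1.73), followed by GSTM3 at 1.17 (0.602 to 2.27) and CYP24A1 at 1.14 (0.948 to 1.37). CYP2W1 scored lowest at 0.354 (0.220 to 0.570), then SULT1A1 at 0.440 (0.305 to 0.636) and CYP1A1 at 0.443 (0.1996 to 0.984), the last from 9 reads in Ago2-IP. The median log2 score was -0.28 for the members and -0.27 for all genes, and scaling by the median RPKM turned these to 0.098 and 0.10. Both scores share the 2 NT libraries.

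**Figure D5:**
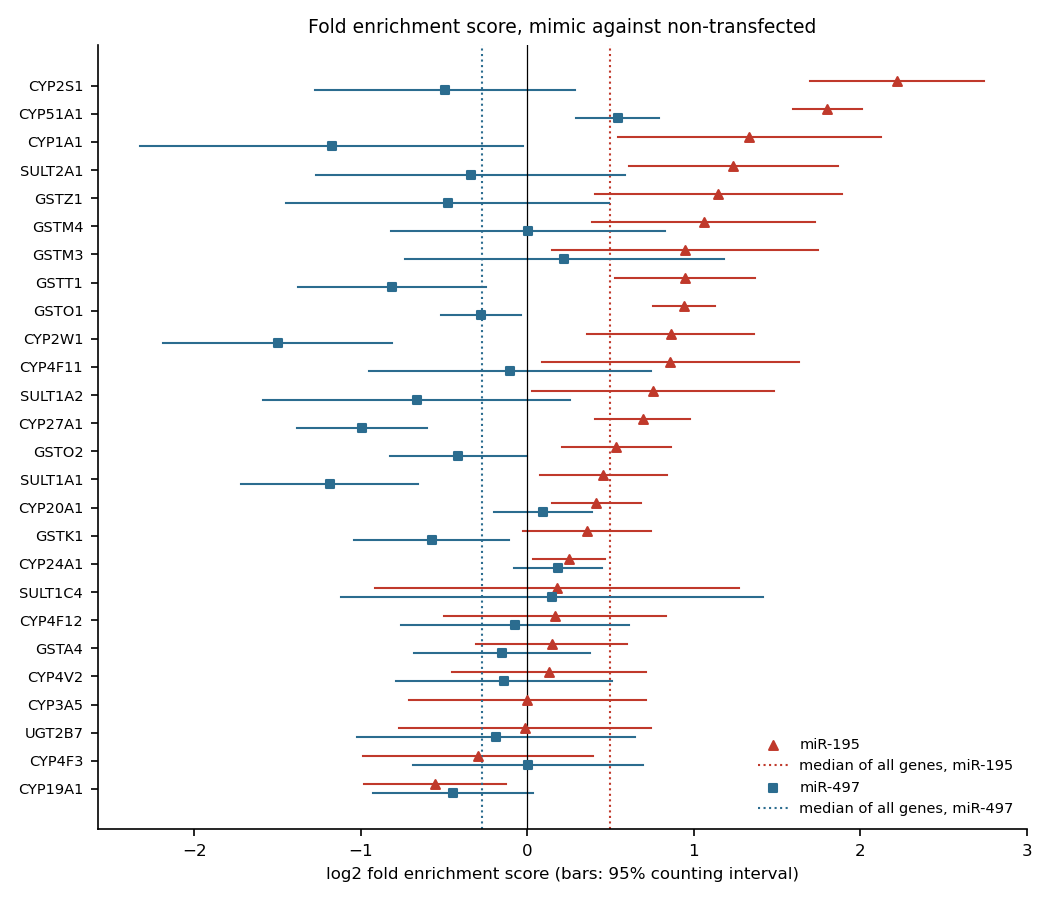
Log2 fold enrichment score of the members with *miR-195* and *miR-497*, with bars for the 95% counting interval and dotted lines for the median of all genes. CYP2S1 and CYP51A1 lie highest with *miR-195*, at 2.22 and 1.80, and CYP2W1 lies lowest with *miR-497*, at -1.50.

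The members with the 7-base site had ratios on both sides of 1. In total RNA with *miR-195*, the ratios were 0.760 for CYP2S1, 1.04 (0.964 to 1.13) for GSTO2 and 1.40 (0.997 to 1.97) for GSTM2. The median log2 ratio of these 3 was 0.06, and that of the 25 members without the site 0.12, a difference of -0.06 against -0.10 over all genes with and without it. With *miR-497* the difference was -0.14 among members and -0.09 among all genes. In Ago2-IP with *miR-195*, CYP2S1 had a ratio of 3.55 and GSTO2, with 2 sites, of 1.51 (1.21 to 1.88), while CYP51A1 and CYP2W1, at higher ratios, do not hold the site.

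For the partner genes of the pathway in total RNA, the background is the share of all genes that were higher or lower by 1.5-fold or more, 6.41% and 6.32% for the *miR-195* library. For *miR-497* these shares were 12.3% and 3.01%. None of the 12 electron donors and heme partners was past 1.5-fold with *miR-195*, and with *miR-497* 4 of the 12 were higher and 0 lower. These were CYB5R3, FDXR, HMOX1 and POR, which went from 29.1 to 46.3, 34.1 to 52.2, 45.3 to 78.1 and 40.3 to 60.7 RPKM. CYB5B and PGRMC1 led this list at 80.8 and 69.7 RPKM in NT. POR, the reductase that feeds the CYP enzymes of the endoplasmic reticulum, had ratios of 1.19 and 1.504.

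Of 17 genes that supply cofactors for conjugation, 16 could be compared. SLC35D1, a carrier of UDP-sugars, was lower with *miR-195*, at 18.8 RPKM in NT and 11.3, and GGT1, which cleaves glutathione, was higher with *miR-497*, at 4.13 and 8.71. UGDH, which makes UDP-glucuronic acid, was the highest at 226.0, 173.8 and 173.5 RPKM. GSR, the glutathione reductase, followed at 100.03, 78.7 and 88.1.

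Of 40 other enzymes of oxidation, reduction and hydrolysis, 24 could be compared. With *miR-195*, ADH4 and AKR1C1 were higher, at ratios of 1.54 and 1.59, and ALDH2, the mitochondrial aldehyde dehydrogenase, was lower, from 74.6 to 42.7 RPKM. None was past 1.5-fold with *miR-497*. The most abundant were NQO1 at 212.7 and AKR1B10 at 87.7 RPKM in NT, and 7 of the 40, ADH1A, ADH1B and ADH1C among them, were at 0.

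Of 19 other conjugating enzymes, 10 could be compared. AS3MT, the arsenic methyltransferase, was higher with both mimics at 1.11, 1.81 and 2.40 RPKM, and GSTCD was lower with *miR-195* at 15.2 and 7.97. MGST1 and MGST2, the microsomal glutathione transferases, were the highest at 153.4 and 94.4 RPKM in NT and lay within 1.5-fold with both mimics.

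Among 11 efflux pumps, of which 9 could be compared, ABCC6 was higher with both mimics at 4.68, 7.26 and 7.32 RPKM, and ABCC3 with *miR-195* at 4.48 and 6.91. ABCC2, the canalicular pump for conjugates, was at 199.2, 210.4 and 181.8 RPKM, and ABCC1 at 21.7, 21.8 and 24.5. Of 36 receptors and regulators, of which 33 could be compared, NR1H2, an oxysterol receptor, was higher with both mimics at 4.13, 6.35 and 8.56 RPKM. PPARD was higher with *miR-497* at 5.34 and 8.49, and NR3C1, the glucocorticoid receptor, lower at 10.5 and 5.88. HSP90AA1 and NFE2L2, the activator of many GST genes, were the most abundant of this list at 495.3 and 128.8 RPKM in NT. The median log2 ratios of the 6 lists in total RNA lay between -0.07 and 0.13 for *miR-195* and between -0.10 and 0.28 for *miR-497*.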

How the data were processed

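Total RNA and Ago2-IP RNA of Hep G2 cells were sequenced in 6 libraries, 1 per group. The authors deposited 1 RPKM value per gene and library. The study's methods name ELANDv2 as the aligner of single reads, and the submitters' processing notes give hg19 and CASAVA 1.7, while the gene annotation, the strand of counting and the treatment of reads with several positions are not given in the sources used here. The study's methods state that mRNA libraries were made both with and without selection of polyadenylated RNA. Which fraction was selected is not said, and the amounts of RNA used for the 2 fractions differed. The table has 21891 lines, and 28 symbols listed more than once were averaged. No column was left unmatched.

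Members, gene lists and comparisons were chosen with earlier results of these data known. Groups came from the sample titles. Log2 ratios were taken without a pseudocount for genes with a mean RPKM of at least 1 in the libraries compared and values above 0 in each, and 1.5-fold was the size that counts. Because every group is 1 library, no test was run. Named genes are the 15 highest members in NT total RNA, the 3 highest and 3 lowest in each comparison of libraries of 1 fraction and in each score, members with the site, the UGT1A, GSTA and SULT1A genes, the rows beside the threshold, and from each list the 2 highest genes and those past 1.5-fold in total RNA, except for items that are not reported here. The other genes named, such as CYP7A1, GSTP1 and AKAP9, were chosen after their values were seen.

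Whole reads were inferred where a gene's RPKM steps gave whole numbers within 0.02 reads in at least 3 libraries, 92.2% of 15486 genes tried. On simulated data, 99.9% of 13795 genes tried were found, 98.0% of them with the simulated reads. The simulated reads were drawn around those already inferred, so these rates do not cover genes for which the inference failed. These reads summed to between 2125817 and 26363868 per library. For 59 of 63 members the implied length differed by less than 1.5-fold from that of an annotated transcript. Intervals are exact Poisson for levels, exact conditional binomial for ratios and a delta-method interval for scores, at 95%. Of the table's symbols, 18208 matched the annotation directly, 2278 by an older symbol and 1377 did not. Alternatives were a pseudocount of 1 RPKM, no filter, scaling by the median RPKM, leaving out near-identical copies, other membership, a limit of 2-fold, and other site lengths. Python 3.11.15, numpy 2.4.6, pandas 2.3.3, scipy 1.17.1 and matplotlib 3.10.9 were used.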

Additional observations from a re-analysis of the deposited data

Results flagged for a closer look

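In all, 4 of the members had ratios in opposite directions in the 2 fractions, total RNA and Ago2-IP, with both counting intervals excluding 1. Their point values remained opposite after subtraction of the median of all genes. The counting intervals were set against 1 only, so they do not show that each gene differs from that median. Other members also lay on opposite sides of 1, but without both intervals excluding it. Of 21 members compared in both fractions with *miR-195*, 14 were above 1 in both and 3 below 1 in both. Of 16 compared with *miR-497*, 4 were above 1 in both and 3 below. Among all genes, the *miR-195* ratio was above 1 for 49.4% (total RNA) and 80.5% (Ago2-IP). For *miR-497* these shares were 55.1% and 21.5%. The fractions thus moved differently over the whole table. How many of all genes lay on opposite sides of 1 was not counted, so these counts do not set the members apart. The difference between the fractions was not tested because each value is 1 library. With *miR-195*, CYP2S1 had a total RNA ratio of 0.760 and an Ago2-IP ratio of 3.55, which gives a score of 4.67. With the same mimic, SULT2A1 had ratios of 0.832 and 1.96 and a score of 2.36, from 34 and 54 reads in Ago2-IP. With *miR-497*, CYP27A1 had ratios of 1.32 and 0.665 and a score of 0.503. SULT1A1 had ratios of 1.54 and 0.677 with *miR-497* and a score of 0.440, from 98 and 42 reads in Ago2-IP, and it has a near-identical copy in SULT1A2.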

How the results depend on the processing

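No paired analysis was possible because each group is 1 library, and leaving out a replicate could not be run for the same reason. Of 89 alternatives over 18 results, 59 stayed within the error or within 1.5 times of a count and 30 moved. For medians and for differences by site, this error came from the spread among the members' own values. In total RNA with *miR-195*, for example, the interval of the median log2 ratio was 0.033 to 0.453. This error holds no spread between replicates, so staying within it does not show that a result would repeat. Without a filter on the mean, 65 members were compared in total RNA with *miR-195*. Of these, 19 were higher and 7 lower, against 13.3% and 8.62% of all genes. With *miR-497*, 19 of 62 were higher and 9 lower, against 19.1% and 5.53%. In Ago2-IP with *miR-195*, 25 of 45 were higher and 3 lower, against 43.8% and 6.25%. With *miR-497*, 11 of 47 were higher and 9 lower, against 8.78% and 19.1%. Also without the filter, Ago2-IP against total RNA in NT had a median log2 ratio of -1.55. This alternative adds members that rest on few reads. Scaling by the median RPKM left 3 members higher in total RNA with *miR-497*, 7 higher and 3 lower in Ago2-IP with *miR-195*, and 2 higher and 0 lower with *miR-497*. The matching shares of all genes were, in the same order, 7.78%, 17.1%, 16.4%, 5.79% and 5.72%. Scaling moved the median log2 ratio to 0.20 in Ago2-IP with *miR-497* and to -0.76 for Ago2-IP against total RNA. It moved the median log2 score to 0.093 for *miR-195* and 0.098 for *miR-497*. In all, 2 medians changed sign. A pseudocount of 1 RPKM left 0 members lower in Ago2-IP with either mimic, against 2.10% of all genes for *miR-195* and 8.06% for *miR-497*. Leaving out near-identical copies left 2 of 17 members higher in total RNA with *miR-497*, against 12.3% of all genes. It left 0 of 13 lower in Ago2-IP with *miR-195*, against 3.4%. At 2-fold in total RNA, 2 of 28 members were higher for *miR-195*, against 1.57% of all genes. For *miR-497*, 1 of 27 was higher, against 2.15%. At that limit, in Ago2-IP 0 of 21 were lower for *miR-195*, against 1.06%. For *miR-497*, 0 of 17 were higher and 0 lower, against 1.12% and 3.37%. With the 6-base and 8-base sites, 16 and 3 of 65 members held a site, against 45.9% and 5.14% of all genes searched. With the 6-base site, the median of members with it minus those without was 0.21 in total RNA with *miR-497*, against -0.02 over all genes. Beyond the alternative's own construction, the cause of these moves was not tested. Depth limits the low members, since 23 rest on fewer than 10 reads in NT total RNA, and the Ago2-IP libraries were shallower over genes than the total RNA libraries.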

Other observations

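Among the efflux pumps, ABCC2 was at 164.8 RPKM in Ago2-IP and 199.2 in total RNA of non-transfected cells, and ABCC6 at 4.04 and 4.68. The median log2 ratio of Ago2-IP to total RNA was -1.09 for the 9 pumps compared, against -2.40 for the 25 enzymes of the set, -2.98 for 24 other oxidizing, reducing and hydrolysing enzymes, -1.50 for 32 receptors and regulators and -1.86 for all genes. Within the enzymes, the 3 CYP4 members compared had a median of -1.23, CYP3A5 stood at -0.04 and CYP19A1 at -0.31, and without the filter on the mean the median of the enzymes was -1.55. These are values of single libraries, and the difference between the groups was not tested.

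Among genes that the rule left out because they were at 0 in NT total RNA, the highest value was that of GSTM2P1, a pseudogene of GSTM2, at 0.259 RPKM in Ago2-IP with *miR-195*.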
